A study of Mus musculus with 2 samples.

Results

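The 10 genes described here encode chemokines, a cytokine and the regulators that switch such genes on and off in inflammation. They are Cxcl1, Cxcl2, Ccl2, Ccl7, Il6, Cebpb, Cebpd, Socs3, Nfkbia and Zfp36. On GRCm38 (Gencode vM21) Cxcl1 lies at chr5:90891241-90893115 and Cxcl2 at chr5:90903871-90905938, Ccl2 at chr11:82035571-82037453 and Ccl7 at chr11:82045712-82047525, and Il6 at chr5:30013114-30019981. Cebpb lies at chr2:167688915-167690418, Cebpd at chr16:15887286-15891031, Socs3 at chr11:117966079-117970047, Nfkbia at chr12:55489410-55492647 and Zfp36 at chr7:28376784-28380253, the last 3 on the minus strand. They were taken by symbol from a list, and all 10 are among the 20830 genes counted in the 10% aliquot and the 26997 genes counted in the 90% aliquot. The long-read table of the 10% aliquot holds isoforms of 9 of the 10, and Cebpb has no isoform in it. The genes were compared between low-depth barcodes, with 3000 to 15000 short-read UMIs (unique molecular identifiers, 1 per captured transcript) and no UMI of the cell cycle genes Rrm2, Top2a and Cdk1, and deep barcodes with at least 20000 UMIs.

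The cells were mouse muscle stem cells (MuSCs), the Pax7-expressing cells that repair skeletal muscle. They came from Pax7creERT2R26-eYFPfl/fl mice on a C57BL6 background, in which tamoxifen given at 3 months of age turns on YFP in cells that use the Pax7 promoter, and all cells were sorted on YFP. Quiescent cells from uninjured hindlimb muscle and activated cells taken 72 h after injury with 1.2% barium chloride were run in the same 10x 3′ v2 capture and carry no label that tells them apart. Droplets were divided into a 10% aliquot, read with short and long (nanopore) reads, and a 90% aliquot, read with short reads alone. Each aliquot is 1 sample of 1 capture, so no test between groups of barcodes was made, and every interval below is an exact 95% interval that covers counting error only.

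CXC and CC chemokines are small secreted proteins that draw leukocytes to damaged tissue through receptors on those cells. Their genes are switched on within minutes to hours by NF-kappaB, STAT3 and C/EBP factors, and the same signals induce the genes that end the response. IκBα, the product of Nfkbia, holds NF-kappaB in the cytoplasm, SOCS3 blocks signalling from the receptors of the IL-6 family, and tristetraprolin, the product of Zfp36, binds AU-rich sites in the 3′ untranslated regions of cytokine mRNAs and marks them for decay. Isolation of MuSCs from muscle by enzymes at warm temperature is itself known to induce early response genes.

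Reference promoter windows, from 250 bases before to 50 bases after the gene start, were found for 7 of the 10 genes in RefSeq on GRCm38.p6. The NF-kappaB consensus lies in 4 of these 7 windows and in 4.51% of all 32851 windows, searched on both strands. The 160 bases before the RefSeq start of these 4 genes are shown because each holds a match to this consensus. The letters of the match differ between genes. Those of Cxcl1 and Cxcl2 run past the Gencode starts given above, which differ from the RefSeq starts. The NF-kappaB consensus is in capitals and, in Il6, a C/EBP-like match is in capitals before it.
Cxcl1, chr5:90891085-90891244, plus strand: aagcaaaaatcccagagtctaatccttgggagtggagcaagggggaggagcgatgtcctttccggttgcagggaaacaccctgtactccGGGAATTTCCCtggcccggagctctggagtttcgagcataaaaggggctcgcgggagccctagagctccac
Cxcl2, chr5:90903739-90903898, plus strand: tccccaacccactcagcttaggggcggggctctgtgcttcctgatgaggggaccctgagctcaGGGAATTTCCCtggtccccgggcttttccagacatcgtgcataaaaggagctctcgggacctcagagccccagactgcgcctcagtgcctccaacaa
Il6, chr5:30012954-30013113, plus strand: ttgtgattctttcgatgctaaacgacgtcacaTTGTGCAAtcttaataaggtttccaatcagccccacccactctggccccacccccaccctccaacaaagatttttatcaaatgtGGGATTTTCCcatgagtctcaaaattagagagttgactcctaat
Nfkbia, chr12:55492648-55492807, minus strand: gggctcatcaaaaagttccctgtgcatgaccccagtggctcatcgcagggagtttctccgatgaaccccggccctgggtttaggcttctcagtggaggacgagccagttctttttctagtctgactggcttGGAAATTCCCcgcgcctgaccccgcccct

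Cxcl1 and Cxcl2 hold the same letters at the NF-kappaB match, and in each it is a pair of overlapping matches on opposite strands. A match is a description of the letters and not a bound site. The C/EBP-like motif TTGCNNAA is in 10.8% of all windows and in 1 of the 7, that of Il6. The STAT-like motif TTCNNNGAA is in 8.30% of all windows and in those of Zfp36 and Socs3. The AP-1-like motif TGANTCA is in 7.81% of all windows and in that of Il6. The TATA box letters TATAAA are in 13.6% and in those of Cebpb and Nfkbia. Both of these matches lie after the gene start, at 21 to 26 and 19 to 24 bases, the latter on the opposite strand. The cyclic AMP response element TGACGTCA is in 1.79% and in none of the 7.

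Sites for AU-rich binding proteins were counted in the 3′ untranslated region of the reference transcript of each gene (Gencode vM21). The heptamer TATTTAT occurs in 7 of the 10 and in 28.1% of the 3′ untranslated regions of 20659 genes. The first heptamer of each is shown in capitals with its flanks.
Cxcl1: ttgagggtccTATTTATttatgtattt
Cxcl2: agagttcactTATTTATttatctatgt
Il6: ttatgattgaTATTTATtatttttatg
Cebpd: gttggacattTATTTATtgtaacagaa
Socs3: tttgcacataTATTTATatttatactc
Nfkbia: gaccacgtttTATTTATtgtgcttttg
Zfp36: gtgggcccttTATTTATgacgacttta

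The chemokines Cxcl1 and Cxcl2 hold the most heptamers, 6 in 592 bases and 7 in 734 bases. Among 3′ untranslated regions within 10% of their length, 0.092% and 0.167% hold as many. Zfp36 itself holds 3 in 774 bases, as many as 1.59% of those of like length. Il6 holds 1 heptamer, as many as 10.4% of those of like length, but 6 of the shorter ATTTA pentamers, as many as 0.448%. Socs3 and Nfkbia hold 2 heptamers each, as many as 10.5% and 3.16% of those of like length. Cebpd holds 1 in 2900 bases, as many as 54.3%. Ccl2, Ccl7 and Cebpb hold no heptamer, and Cebpb no pentamer.

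The tables of the 2 aliquots are not independent. They list 634 barcodes in common, and all 269 barcodes with at least 3000 UMIs in the 10% table are also in the 90% list. Over these barcodes the log counts of 20506 genes had a median Pearson correlation of 0.933 with the same barcode in the other table and 0.716 with another barcode, and the 90% table held a median of 0.814 UMIs for each UMI of the 10% table. All 157 low-depth and 79 deep barcodes of the 10% aliquot are in the 90% list. Results of the 90% aliquot are therefore given with all barcodes (1243 low-depth and 606 deep) and, where they differ, without the barcodes that the 10% aliquot lists, which left 1000 low-depth and 399 deep barcodes. The median depth of low-depth barcodes was 6729 UMIs in the 10% aliquot and 4680 in the 90% aliquot, against 65499 and 47106 for deep barcodes. Of the barcodes in the 90% table, 2039 had at least 3000 UMIs. That is more than the cells the study counted, and its cell filter is not given in the sources used here, so some low-depth barcodes of this table lie outside its cells.

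Relative to all UMIs of their barcodes, all 10 genes were higher in the low-depth barcodes of both aliquots. A gene was tested for this fold where its mean over both groups reached 5 CPM (UMIs per 1000000 UMIs of the group), and it was called where pooled CPM differed at least 2-fold. All 10 passed this filter and were called higher, where 19.3% of 8649 genes were in the 10% aliquot and 18.6% of 8867 in the 90% aliquot. Il6 in both aliquots, and Cebpb and Zfp36 in the 10% aliquot, passed only through the low-depth group and so had to differ. Of the genes that reached 5 CPM in both groups, 7 of 7 in the 10% aliquot and 9 of 9 in the 90% aliquot were at least 2-fold higher. The median ratio of all genes tested was 0.883 and 0.860.

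**Figure D1:**
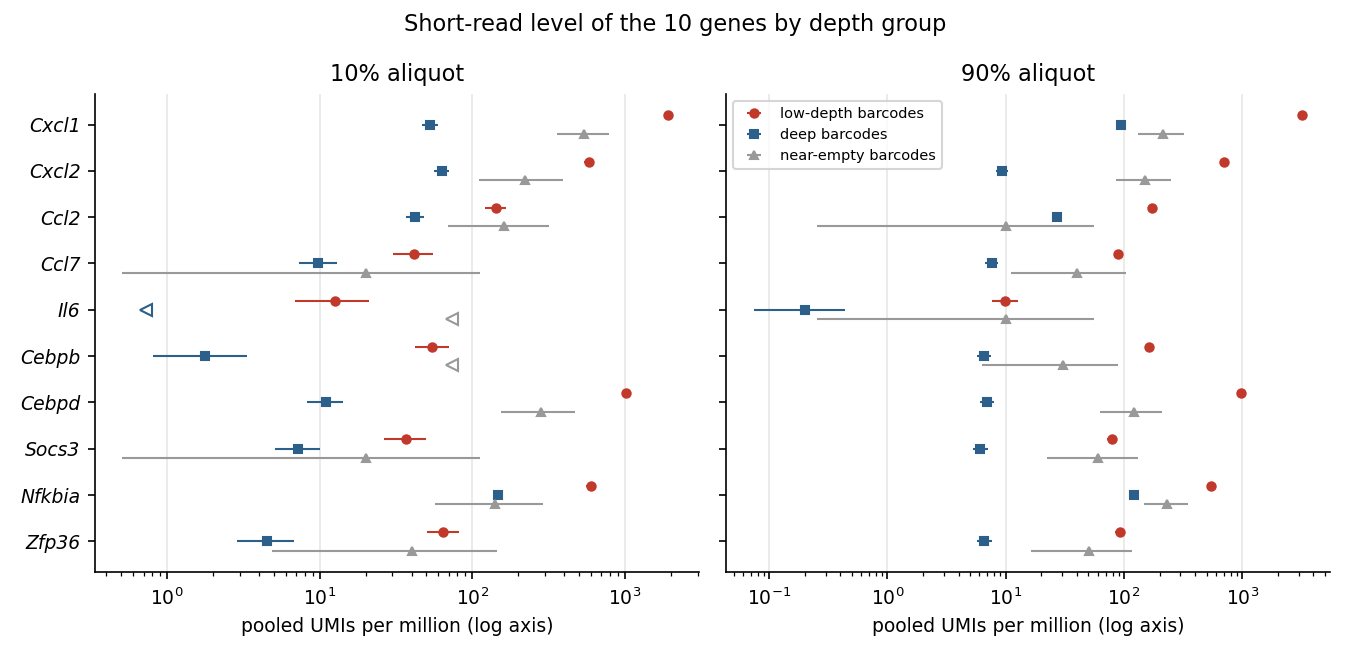
Pooled short-read level of each gene in CPM (log axis) in low-depth barcodes (red circles), deep barcodes (blue squares) and near-empty barcodes of under 500 UMIs (grey triangles), with exact 95% Poisson intervals, in the 10% aliquot (left) and the 90% aliquot (right). An open arrow stands at the upper limit of a group with no UMI. Every gene is higher in low-depth than in deep barcodes, and the near-empty level of Cxcl1 and Cebpd lies between the other groups.

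A UMI is counted once per captured 3′ end whatever the length of the transcript, so levels of different genes are set side by side as they are. Cxcl1, a neutrophil-attracting chemokine, had the highest level of the 10 in the low-depth barcodes of both aliquots. Its pooled level there was 1931 CPM (interval 1850 to 2014) in the 10% aliquot and 3181 CPM (3138 to 3225) in the 90% aliquot. In deep barcodes it was 53.1 CPM (47.0 to 59.9) and 94.3 CPM (90.8 to 97.8). The ratio of low-depth to deep was thus 36.3 (32.0 to 41.4) and 33.7 (32.4 to 35.1). Without the shared barcodes of the 90% aliquot it was 28.3, and those of the other 9 genes ran from 4.61 for Nfkbia to 160 for Cebpd. Per barcode, the low-depth group also held more Cxcl1, with 13.7 against 3.43 UMIs in the 10% aliquot and 16.5 against 4.65 in the 90% aliquot, although its barcodes held far fewer UMIs in all.

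Cxcl2, a related chemokine from the neighbouring gene, was at 585 CPM in low-depth barcodes of the 10% aliquot and at 705 CPM in those of the 90% aliquot. In deep barcodes it was at 63.0 CPM and 9.31 CPM, giving ratios of 9.29 (8.12 to 10.7) and 75.7 (67.1 to 85.8). The gap between the aliquots rested on 1 barcode. This barcode of the 10% aliquot had 20922 UMIs, just above the limit for deep barcodes, and held 295 of the 321 Cxcl2 UMIs of the deep group. Its copy in the 90% table had 16704 UMIs, 238 of them Cxcl2, and fell in neither group. Without the barcode with most Cxcl2 UMIs in each group, an alternative chosen after seeing the data, the ratio of the 10% aliquot was 92.6.

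The monocyte-attracting chemokines Ccl2 and Ccl7, which lie next to each other on chromosome 11, were lower than Cxcl1 and Cxcl2 in low-depth barcodes. Ccl2 was at 143 CPM (121 to 167) in low-depth barcodes of the 10% aliquot and 42.0 CPM (36.5 to 48.0) in its deep barcodes, and at 172 CPM (162 to 182) and 27.2 CPM (25.4 to 29.1) in the 90% aliquot. Ccl7 was at 41.3 CPM (30.2 to 55.1) and 9.81 CPM (7.28 to 12.9), and at 89.3 CPM (82.1 to 96.9) and 7.60 CPM (6.64 to 8.65). The ratios were 3.40 and 6.32 for Ccl2 and 4.21 and 11.7 for Ccl7. Per barcode the order turned for Ccl2, with 1.01 UMIs in a low-depth against 2.71 in a deep barcode of the 10% aliquot and 0.892 against 1.34 in the 90% aliquot.

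Much of the CC chemokine in deep barcodes of the 10% aliquot was in barcodes with UMIs of at least 2 markers of another cell type. There 8 of 79 deep barcodes were of this kind and held 57.0% of the Ccl2 and 94.0% of the Ccl7 UMIs of the group. The rule takes no account of depth, so a deep barcode meets it more readily. It does not show that the UMIs came from another cell type. The barcode with most Ccl2 in that group had 85 UMIs of it and a UMI of all 5 fibro-adipogenic markers, 19 of them from Dcn, the gene of the matrix protein decorin. Ccl7 stood out in another deep barcode, with 40 of the 50 UMIs of the group, together with 36 of Ccl2 and 26 of the myogenic factor gene Myod1. This barcode also held 19 UMIs of Des and 2 of Pax7. It had UMIs of 2 of the fibro-adipogenic markers and so was among the 8. The 8 barcodes, this one among them, held 47 of the 50 Ccl7 UMIs of the deep group. Without barcodes of this kind in either group the ratio for Ccl7 in the 10% aliquot was 62.4. That value rests on the few deep UMIs left. In the 90% aliquot such barcodes held 15.4% of the Ccl2 and 18.1% of the Ccl7 UMIs of the deep group, and the ratio for Ccl7 without them was 13.2.

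Il6, the cytokine that signals through IL6ST, was the rarest of the 10. It had 14 UMIs in 4 of 157 low-depth barcodes of the 10% aliquot and 0 UMIs in the 79 deep barcodes. Against the floor of 3 counts in the deep group this is at least 21.4-fold higher before the counting error of the 14 UMIs. With that error the lower exact limit is 15.2, and without the low-depth barcode with most Il6 the ratio to the floor is 10.5. In the 90% aliquot it had 64 UMIs in 20 of 1243 low-depth barcodes and 6 UMIs in 5 of 606 deep barcodes, a ratio of 49.4 (21.5 to 140), or 32.4 (14.0 to 92.3) without the shared barcodes. Of those 64 UMIs, 21 were in barcodes with at least 2 markers of another cell type.

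The C/EBP factors Cebpd and Cebpb encode transcription factors that are induced by IL-6 and IL-1. Cebpd, seen in more low-depth barcodes than any other of the 10 genes, was at 1013 CPM (955 to 1074) in low-depth and 11.0 CPM (8.30 to 14.3) in deep barcodes of the 10% aliquot. In the 90% aliquot it was at 980 CPM (956 to 1005) and 6.93 CPM (6.02 to 7.94). The ratios were 92.2 (70.5 to 123) and 141 (123 to 163), the largest among the 10 in each aliquot and ranked 19 of 8649 and 27 of 8867 genes tested. The ratio of the 10% aliquot moved from 52.5, as a mean over barcodes, to 210, with deep barcodes of at least 40000 UMIs. Low-depth barcodes held 7.19 and 5.09 UMIs of Cebpd each, deep barcodes 0.709 and 0.342.

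Cebpb was at 54.7 CPM (41.9 to 70.3) and 1.77 CPM (0.807 to 3.35) in the 10% aliquot, and at 164 CPM (155 to 175) and 6.56 CPM (5.67 to 7.55) in the 90% aliquot, with ratios of 31.0 (15.3 to 71.0) and 25.1 (21.5 to 29.3). These counts are uncertain, because the UMIs of Cebpb in a barcode did not recur in the other table, as described with the same barcodes below. The gene has a single exon, and whether the short-read counting used strand is not given in the sources used here. Why the UMIs of Cebpb did not recur was not tested.

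Of the feedback genes, Nfkbia had by far the highest level. Nfkbia, the inhibitor of NF-kappaB, was at 602 CPM (557 to 649) in low-depth and 148 CPM (138 to 159) in deep barcodes of the 10% aliquot, and at 542 CPM (524 to 561) and 122 CPM (118 to 126) in the 90% aliquot. Its ratios of 4.07 (3.66 to 4.52) and 4.43 (4.23 to 4.64) differed little between aliquots. It had the highest level of the 10 in deep barcodes of both aliquots, but without the shared barcodes of the 90% aliquot Cxcl1 was at 116 CPM and Nfkbia at 115 CPM there. Per barcode it was lower in low-depth barcodes, at 4.27 against 9.54 UMIs and 2.82 against 6.04 UMIs.

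Socs3, the inhibitor of signalling from the IL-6 receptor family, was at 36.8 CPM (26.4 to 49.9) in low-depth and 7.26 CPM (5.11 to 10.0) in deep barcodes of the 10% aliquot. In the 90% aliquot it was at 78.9 CPM (72.2 to 86.0) and 6.09 CPM (5.24 to 7.04), so that the ratio was 5.07 (3.17 to 8.13) in one and 12.9 (10.9 to 15.4) in the other. Zfp36, the mRNA decay factor, was at 64.6 CPM (50.5 to 81.4) and 4.51 CPM (2.86 to 6.77), and at 92.1 CPM (84.8 to 99.8) and 6.59 CPM (5.71 to 7.58). Its ratios, 14.3 (8.85 to 24.0) and 14.0 (11.9 to 16.5), were alike within counting error.

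Barcodes with almost no UMIs hold free transcripts of the capture, and some are shallow copies of cells. The 90% list holds 254 of the 1435 near-empty barcodes of the 10% table, and 202 barcodes of at least 3000 UMIs in the 90% table had under 1000 UMIs in the 10% table, with a median of 56. In the barcodes of under 500 UMIs, with a median of 17 UMIs in the 10% and 236 in the 90% aliquot, Cxcl1 was at 543 CPM (358 to 790) and 212 CPM (131 to 324). Cebpd was at 282 CPM (154 to 473) and 121 CPM (62.6 to 212). Both are below the level of low-depth barcodes and above that of deep barcodes in each aliquot. For Ccl2, Ccl7 and Il6 the near-empty groups held at most 8 UMIs of each, and their intervals overlap one or both groups. The part of free RNA in the UMIs of deep barcodes was not tested.

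Before depth was made equal, about as many deep as low-depth barcodes held a UMI of Cxcl1. Other chemokines varied. Ccl2 was in 12.3% of low-depth and 18.3% of deep barcodes of the 90% aliquot, and Ccl7 in 11.5% and 5.06% in the 10% aliquot. Of low-depth barcodes of the 90% aliquot 60.5% had a Cxcl1 UMI, and of deep barcodes 61.4%. After each barcode was thinned at random to 3000 UMIs, which left out no barcode of either group, the shares were 55.2% (52.4 to 58.0) and 14.0% (11.4 to 17.0). In the 10% aliquot the thinned shares were 47.1% (39.1 to 55.3) and 8.86% (3.64 to 17.4). Cebpd was seen in 71.5% (68.9 to 74.0) against 2.81% (1.64 to 4.45) of thinned barcodes of the 90% aliquot and in 72.0% (64.3 to 78.8) against 3.80% (0.790 to 10.7) of those of the 10% aliquot. Nfkbia was seen in 56.1% against 28.5%, and in 58.6% against 21.5%.

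The rarer genes kept this order in the 90% aliquot. After thinning Cxcl2 was seen in 16.0% (14.0 to 18.2) of low-depth and 1.49% (0.681 to 2.80) of deep barcodes, Ccl2 in 10.3% (8.66 to 12.1) and 3.80% (2.42 to 5.64), and Ccl7 in 7.32% (5.94 to 8.91) and 1.16% (0.466 to 2.37). Socs3 was seen in 12.1% (10.4 to 14.1) and 2.64% (1.52 to 4.25) and Zfp36 in 17.4% (15.3 to 19.6) and 1.98% (1.03 to 3.43). In the 10% aliquot the intervals of Cxcl2, Ccl2, Ccl7, Il6 and Socs3 overlapped at this depth. The overlap does not show that the shares of these 5 genes were alike, and no test between groups was made. After thinning Il6 was in 1.29% of low-depth barcodes of the 90% aliquot and in 0 of 606 deep barcodes, where the floor of 3 counts allows a share of barcodes with a UMI of up to 0.495% and the exact limit is 0.607%.

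**Figure D2:**
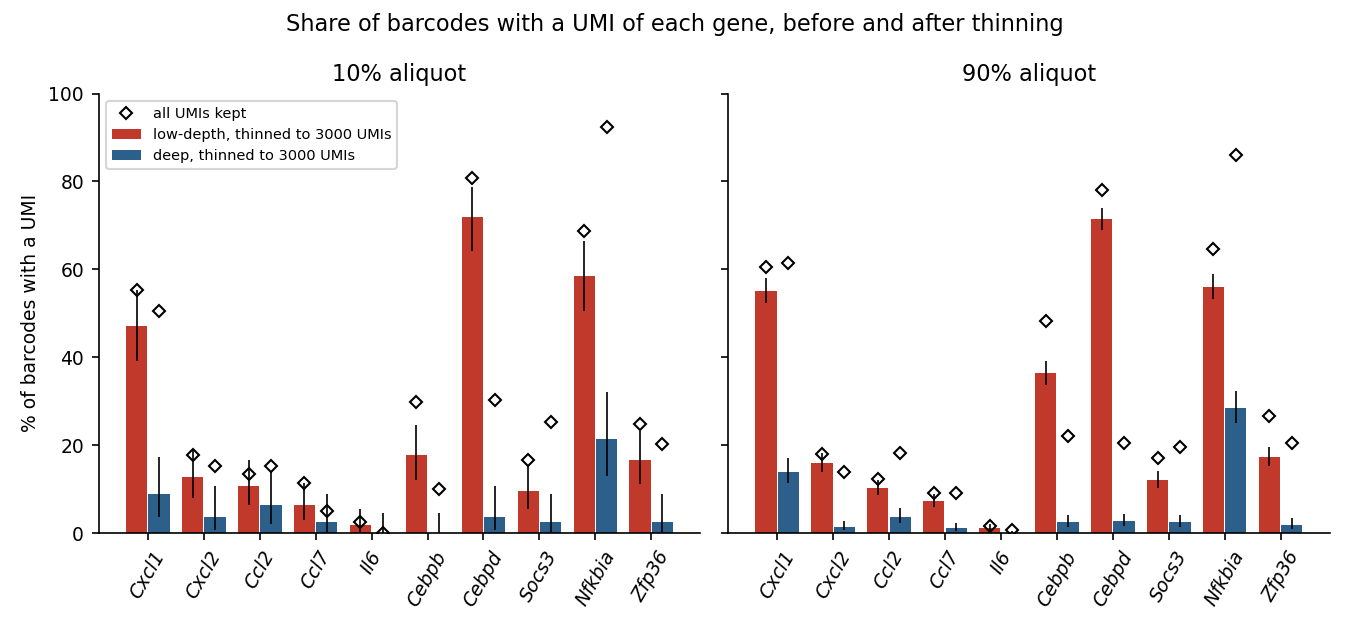
Share of barcodes with at least 1 UMI of each gene, in percent, in low-depth (red) and deep (blue) barcodes of the 10% aliquot (left) and the 90% aliquot (right). Bars are shares after thinning to 3000 UMIs with exact binomial 95% intervals, and open diamonds are the shares with all UMIs kept. The diamonds of Cxcl1 stand level in the 90% aliquot at 60.5% and 61.4%, while its bars stand at 55.2% and 14.0%.

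Within the low-depth barcodes the 10 genes were spread in very different ways. The 10% of barcodes with most UMIs of the gene, 125 of 1243 in the 90% aliquot, held 95.3% of Cxcl2 and 97.5% of Ccl2 UMIs. Ccl7 and Il6 were seen in 113 and 20 barcodes, so that the 125 had to hold all of their UMIs. Socs3 was intermediate at 82.5%. The same share of barcodes held 59.1% of Cxcl1 and 63.5% of Zfp36, and 36.0% of Cebpd and 43.2% of Nfkbia. In the 10% aliquot the shares were 63.7% for Cxcl1, 96.6% for Cxcl2, 33.5% for Cebpd and 38.9% for Nfkbia.

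**Figure D3:**
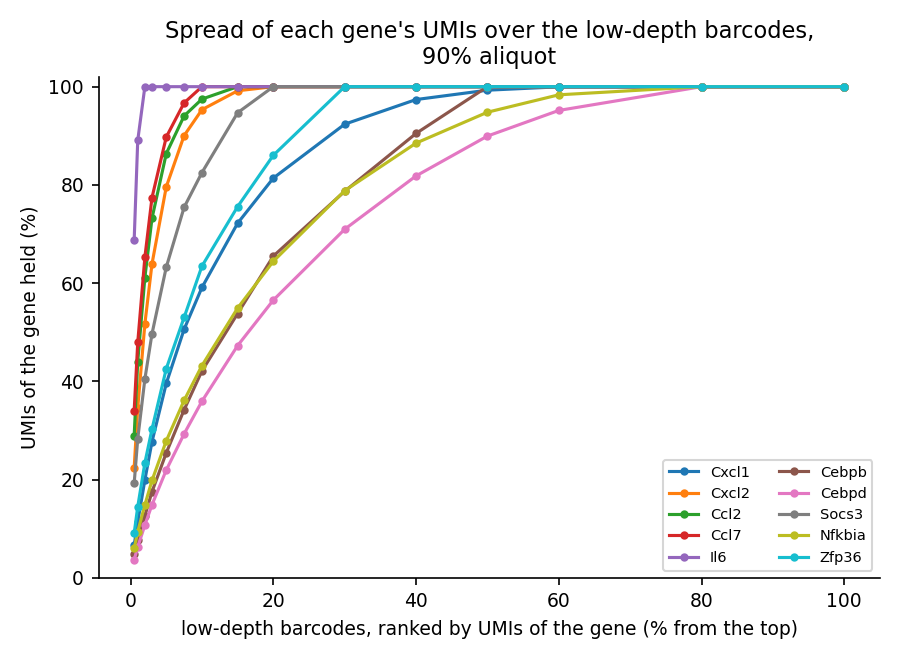
Percent of the UMIs of each gene (vertical axis) held by the given percent of low-depth barcodes of the 90% aliquot, ranked from the barcode with most UMIs of that gene (horizontal axis). The curves of Il6, Ccl7, Ccl2 and Cxcl2 are near 100% within the first 10% of barcodes, and that of Cebpd is at 36.0% there.

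Single barcodes reached high counts. One low-depth barcode of the 90% aliquot with 6172 UMIs held 267 of Cxcl2, 219 of Cxcl1 and 38 of Ccl2. Another with 3943 UMIs held 78 of Cxcl1, 69 of Ccl2 and 42 of Ccl7 but none of Cxcl2. A further one with 3290 UMIs had the most Socs3 (28 UMIs) and the most Zfp36 (11 UMIs), and no Cxcl1 or Cxcl2. At least 1 of the 4 chemokines was seen in 816 of 1243 low-depth barcodes, at least 2 in 324 and all 4 in 20.

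The genes were only loosely linked from barcode to barcode. Over the 1243 low-depth barcodes of the 90% aliquot the Spearman correlation of per-barcode CPM was below 0.2 for 40 of the 45 pairs, and below 0.2 for 31 of 45 pairs over the 157 barcodes of the 10% aliquot. These are descriptions of sparse counts that share depth and capture. The pair Cxcl1 and Cxcl2 stood highest, at 0.385 and 0.389, followed in the 90% aliquot by Cxcl1 and Nfkbia at 0.330 (0.376 in the 10% aliquot) and by Ccl2 and Ccl7 at 0.321 (0.241). Cxcl1 and Cebpd were at 0.266 and 0.281. Cebpb was between -0.0061 and 0.159 with each of the other 9 genes in the 90% aliquot.

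Among 3481 other genes seen in at least 10% of the low-depth barcodes of the 90% aliquot, 8 were most like the summed CPM of the 10 by Spearman correlation. They were the metallothionein gene Mt2 (0.382), Ifrd1 (0.375), the AP-1 gene Junb (0.328), the phosphodiesterase gene Pde4b (0.315), Errfi1 (0.309), Ier3 (0.306), Pnrc1 (0.299) and the NF-kappaB gene Nfkb1 (0.293). In the 10% aliquot the same genes had correlations from 0.324 for Junb to 0.454 for Pde4b.

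The level also differed between barcodes outside the compared groups. Barcodes of 1000 to under 3000 UMIs were lower than the low-depth group, at 1524 CPM of Cxcl1 and 511 CPM of Cebpd in the 10% aliquot and 1146 and 466 CPM in the 90% aliquot. Barcodes of 3000 to 15000 UMIs that did hold a UMI of Rrm2, Top2a or Cdk1 were at 1010 CPM of Cxcl1 and 358 CPM of Cebpd in the 10% aliquot (21 barcodes), and at 1924 CPM and 472 CPM in the 90% aliquot (148 barcodes). These values lie below those of barcodes without such a UMI and above those of deep barcodes. Deep barcodes with no UMI of the 3 genes were at 265 CPM of Cxcl1 and 6.38 CPM of Cebpd in the 90% aliquot (35 barcodes), against 86.8 CPM and 6.95 CPM in the 571 with one. The Cebpd level of the former rests on 8 UMIs.

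Within the low-depth group the shallower barcodes of the 90% aliquot had more of most genes. From 3000 to under 6000 UMIs (952 barcodes) Cxcl1 was at 3634 CPM, Cebpd at 1117 CPM and Nfkbia at 584 CPM, and from 6000 to 15000 UMIs (291 barcodes) at 2369, 735 and 468 CPM. Cxcl2 did not follow this, at 662 and 782 CPM. In the 10% aliquot Cxcl1 went the other way, from 1573 CPM in 61 barcodes to 2056 CPM in 96 barcodes, while Cebpd was at 1106 and 980 CPM.

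Low-depth barcodes with and without a UMI of Myod1, the gene of a factor that marks activated MuSCs, had similar Cebpd. In the 90% aliquot it was at 971 CPM in 604 barcodes with Myod1 and 988 CPM in 639 without, and in the 10% aliquot at 1017 and 1008 CPM (83 and 74 barcodes). Cxcl1 was at 3319 and 3048 CPM in the 90% aliquot and at 2196 and 1628 CPM in the 10% aliquot. Socs3 was lower with Myod1 in both aliquots, at ratios of 0.718 (0.598 to 0.859) and 0.455 (0.220 to 0.898). Ccl2 was lower with Myod1 in both, at 119 against 222 CPM and at 59.0 against 238 CPM, ratios of 0.537 (0.473 to 0.609) and 0.248 (0.165 to 0.363). Cxcl2 was 6.65-fold (5.23 to 8.56) higher with Myod1 in the 10% aliquot, 1.21-fold (1.14 to 1.28) higher in the 90% aliquot, and at 0.907 (0.849 to 0.969) of the level without Myod1 once shared barcodes were left out.

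The barcodes that both tables placed in the low-depth group, 144 in all, show how well a count of each gene recurs. Cxcl1 had 2093 UMIs in the 10% table and 2127 in the 90% table, with a Spearman correlation of 0.963 over the 144 barcodes. For the 8 genes other than Cebpb and Il6 this correlation was between 0.919 and 0.978. The 4 barcodes with Il6 were the same in both tables. Cebpb had 61 and 50 UMIs, but a correlation of 0.0616, and of the 74 barcodes with a UMI of it in either table, only 15 had one in both. Among 1718 genes with 30 to 120 UMIs in each table over these barcodes the median correlation was 0.886, and Cebpb ranked 19 from the lowest. Of the 55 genes below 0.2, 51 are annotated as pseudogenes and 4, Cebpb, Gm12355, Rpl27 and Rpl7a, as protein coding, while pseudogenes make up 142 of the 1718 genes. These genes were singled out after their values were seen.

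**Figure D4:**
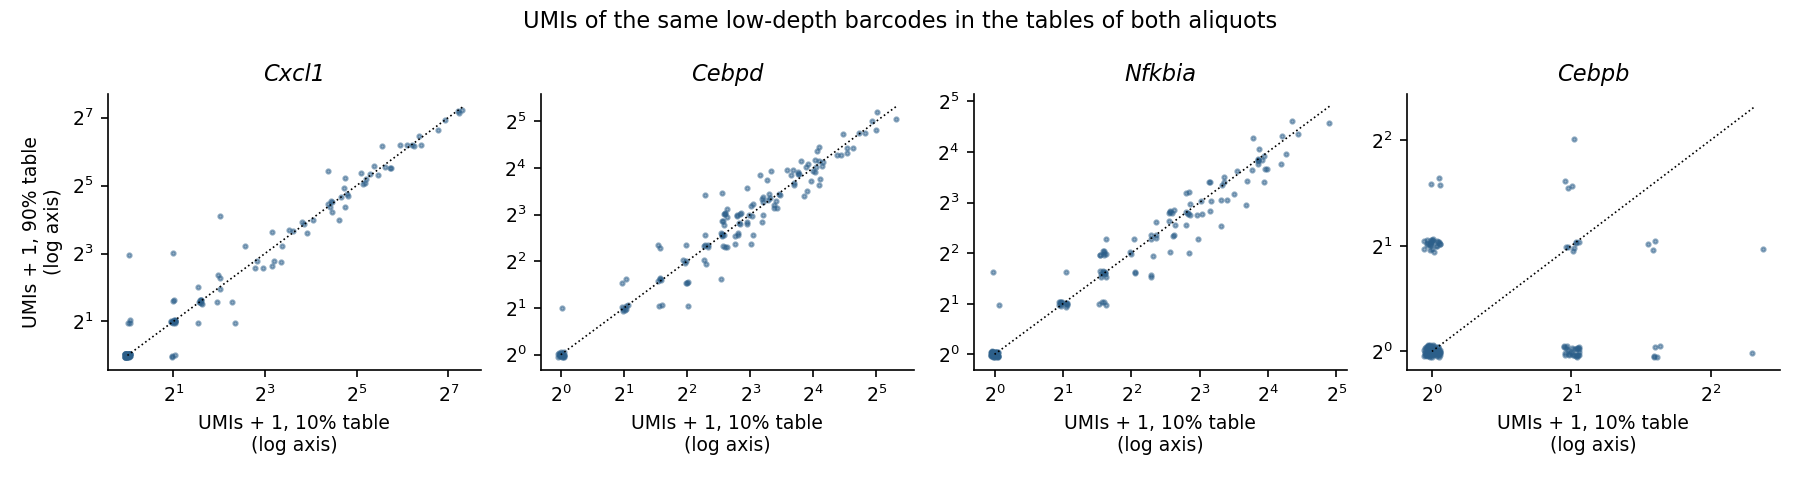
UMIs plus 1 of Cxcl1, Cebpd, Nfkbia and Cebpb in the 144 barcodes that are low-depth in both tables, in the 10% table (horizontal, log axis) and the 90% table (vertical, log axis), with a small random shift so that points show. Points of Cxcl1, Cebpd and Nfkbia follow the dotted line of equal counts, and those of Cebpb, at a correlation of 0.0616, do not.

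Long reads of the 10% aliquot gave the same order. In these all 9 counted genes were at least 2-fold higher in low-depth barcodes, against 21.7% of 8743 genes tested. Il6, with 0 UMIs in deep barcodes, passed the filter only through the low-depth group, and of the genes at 5 CPM in both groups 8 of 8 were higher. The ratio was 20.7 (19.1 to 22.5) for Cxcl1, 38.8 (34.1 to 44.3) for Cebpd and 3.60 (3.35 to 3.87) for Nfkbia, and the lowest was 3.43 (2.64 to 4.47) for Socs3. Each of the 9 genes had more UMIs in long than in short reads of the same 157 low-depth barcodes, from 1.70 times for Ccl2 to 2.93 times for Socs3. All genes together had 1382498 long-read and 1114508 short-read UMIs in these barcodes. Over these barcodes the Spearman correlation of long with short counts ran from 0.696 for Cxcl2 to 0.956 for Cebpd. Near-empty barcodes had a median of 543 UMIs in long against 17 in short reads. Cxcl2 was seen in 60.8% of deep barcodes by long and in 15.2% by short reads. Whether long reads were given to wrong barcodes, which would bear on the deep group, was not tested.

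The transcripts of the chemokines were mostly the annotated form in both groups. The fully spliced 4-exon transcript of Cxcl1 (Gencode ENSMUST00000031327.8) made up 90.1% (89.2 to 91.0) of 4080 Cxcl1 UMIs in low-depth and 90.3% (87.8 to 92.4) of 659 in deep barcodes. Isoforms that keep at least 1 of its 3 introns made up 6.42% (5.69 to 7.22) and 6.83% (5.02 to 9.03). The leading isoform of Cxcl2 had 73.6% (71.0 to 76.1) and 73.3% (69.4 to 76.9), and that of Ccl2 92.2% (88.4 to 95.1) and 96.5% (93.1 to 98.5). Ccl7, Il6 and Zfp36 had 1 counted isoform each. Cxcl2 was spread over 13 isoforms, 1 of which starts at position 90786141 of chromosome 5, far before the gene start at 90903871, and has no exons in the deposited annotation.

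Socs3 and Cebpd were the genes whose leading share differed most between groups. The annotated Socs3 transcript made up 84.2% (76.4 to 90.2) of 120 UMIs in low-depth and 98.3% (94.0 to 99.8) of 117 UMIs in deep barcodes. Most of the rest in low-depth barcodes, 15 UMIs in 7 barcodes, was an unannotated isoform that spans 117966144 to 117968712 of chromosome 11 and whose exons are not in the deposited annotation. The intervals did not overlap, but these UMIs come from few barcodes. Cebpd was almost wholly divided between 2 unannotated isoforms with the same ends, 15887286 and 15889993 of chromosome 16, and the first held 52.4% (50.6 to 54.2) of 2908 and 61.4% (55.0 to 67.4) of 251 UMIs. Nfkbia kept 73.1% (70.8 to 75.3) and 74.3% (71.9 to 76.5) in its annotated 6-exon transcript.

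The wider inflammatory pathway was described from a list of 135 further genes. Of 93 that passed the filter in the 10% aliquot, 69 were at least 2-fold higher and 6 at least 2-fold lower in low-depth barcodes, where 19.3% of all genes tested were higher and 28.0% lower. In the 90% aliquot 98 passed, 74 were higher and 4 lower, against 18.6% higher and 28.2% lower of all genes. These counts and those of the groups below, like the shares of all genes, include genes that reached 5 CPM in a single group. Such genes had to differ. Lif, Il11, Osmr and Birc3 reached 5 CPM only in the low-depth barcodes of both aliquots. The chemokine Cxcl3 was at 119 against 5.10 CPM and at 78.4 against 6.13 CPM. Ccl11, which passed the filter in the 90% aliquot, was at 31.5 against 0.201 CPM there and at 4.49 against 0.392 CPM in the 10% aliquot. Ccl5 was the other way, with 0 against 93 UMIs in the 10% aliquot, and at 8.99 against 17.6 CPM in the 90% aliquot. Of cytokine genes Lif was 13.2-fold and 42.0-fold higher in low-depth barcodes and Il11 9.15-fold and 14.2-fold, while Csf1 was at 26.0 against 59.8 CPM and at 35.5 against 60.9 CPM. Tnf had no row in the 10% table and 1 and 5 UMIs in the groups of the 90% table.

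Receptors and NF-kappaB genes of the same pathways were mostly higher, and the JAK-STAT genes were less uniform. All 5 receptors past the filter in the 10% aliquot and all 6 in the 90% aliquot were called higher, led by Osmr, the receptor of oncostatin M, at 57.4 against 1.96 CPM and 60.1 against 1.41 CPM. Il6st, the signalling chain of the IL-6 family, was 5.69-fold and 5.25-fold higher, whereas Il6ra did not reach the filter in either aliquot. Stat3 was at 200 against 6.86 CPM and 202 against 8.33 CPM, while 6 of 10 and 7 of 11 JAK-STAT genes past the filter were higher. Of NF-kappaB factors 7 of 8 and 7 of 9 were higher, with Nfkb1 6.63-fold and 7.70-fold and Rela 5.20-fold and 5.98-fold. Among further inhibitors 10 of 12 were higher in each aliquot, with Ier3 12.9-fold and 23.4-fold and Birc3 21.0-fold and 9.81-fold, and Cyld was at 7.44 against 17.6 CPM in the 90% aliquot.

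Genes of AU-rich binding and decay had the lowest median ratio of the listed groups, at 1.03 in the 10% and 1.04 in the 90% aliquot. The median ratio of all genes tested was 0.883 and 0.860, with 19.3% and 18.6% of them higher and 28.0% and 28.2% lower. Of 10 genes of this group past the filter 3 were higher and 1 lower in each aliquot. The 3 were the Zfp36 relatives Zfp36l1 (10.1-fold and 12.2-fold) and Zfp36l2 (2.18-fold and 2.60-fold) and the RNase gene Zc3h12a (6.63-fold and 3.11-fold). The lower gene was Hnrnpd in the 10% aliquot, at a ratio of 0.442, and Khsrp in the 90% aliquot, at 0.439. Elavl1, whose product stabilises the same mRNAs, was at 75.4 against 79.4 CPM and 105 against 110 CPM. Of 33 immediate-early and dissociation genes past the filter 28 were higher in each aliquot, against 19.3% and 18.6% of all genes, and Egr1 was at 473 against 19.4 CPM and 789 against 13.4 CPM. The C/EBP relatives were higher in 4 of 6 and 6 of 6 cases, and Cebpg was 4.43-fold and 4.81-fold higher.

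**Figure D5:**
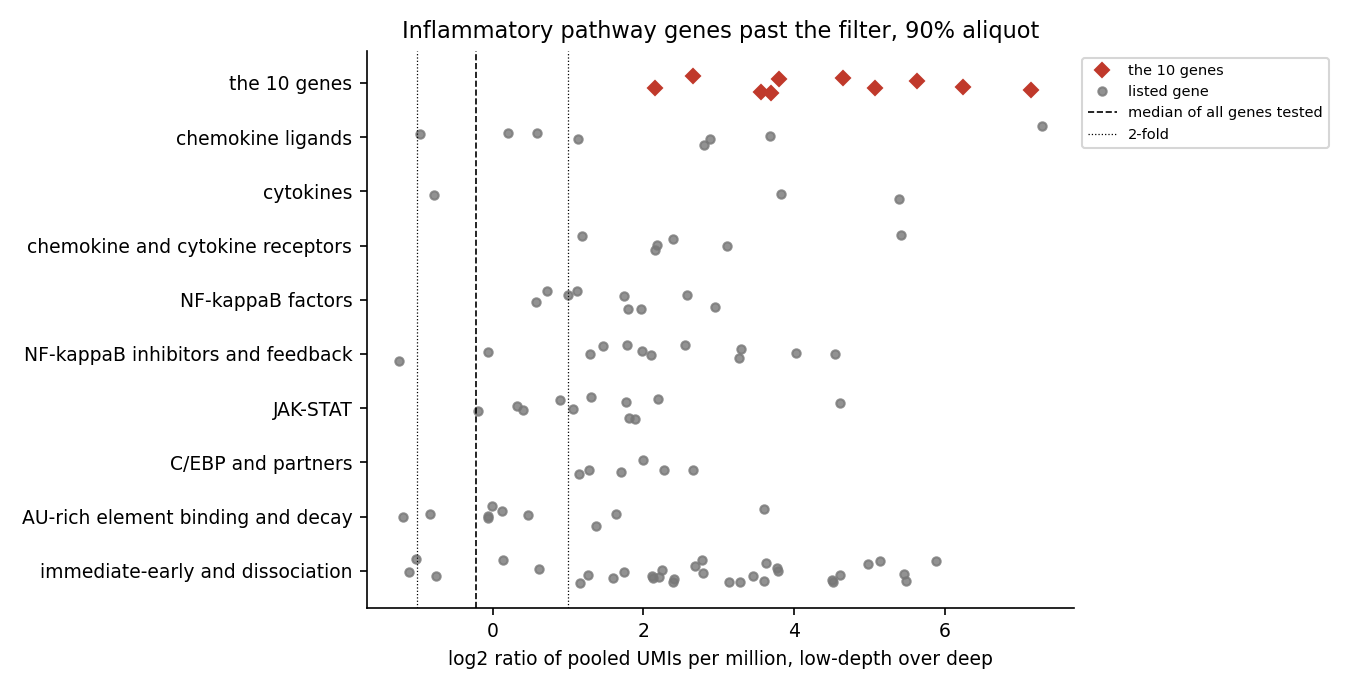
The log2 ratio of pooled CPM in low-depth over deep barcodes of the 90% aliquot (horizontal axis) for the 10 genes (red diamonds) and for the listed pathway genes past the filter (grey circles), 1 row for each group of genes. The dashed line is the median of all genes tested, at -0.22, and dotted lines mark 2-fold. All 10 genes lie to the right of the upper 2-fold line, and the row of AU-rich binding genes centres near 0.

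Most satellite cell markers were higher in low-depth barcodes. Of 14 markers 12 were at least 2-fold higher there in the 10% aliquot and 11 in the 90% aliquot, against 19.3% and 18.6% of all genes tested. No filter on level was applied to the markers. Calcr, Chodl, Chrdl2, Spry1 and Tenm4 were under 5 CPM in deep barcodes of both aliquots. Calcr was at 23.3 and 35.0 CPM in low-depth and 0.196 and 0.736 CPM in deep barcodes, and Pax7 at 27.8 and 18.8 against 12.2 and 7.80 CPM. Cdh15 and Des were lower, Cdh15 at 28.7 and 37.5 against 57.3 and 57.1 CPM and Des at 253 and 305 against 323 and 408 CPM. The activation marker Myod1 was at 1106 and 1069 CPM in low-depth against 185 and 213 CPM in deep barcodes. It was seen in fewer low-depth barcodes, 52.9% and 48.6% against 84.8% and 88.4%. The other listed activation genes outside the rule were lower in low-depth barcodes of both aliquots. These were Myog, Mymk, Mki67, Ccnb1, Tyms and Pclaf, with Myog at 1.79 and 36.7 against 33.1 and 74.6 CPM. Rrm2, which the rule used, was at 133 and 241 CPM in deep barcodes. The share of mitochondrial UMIs was 0.883% in low-depth and 0.881% in deep barcodes of the 10% aliquot and 1.28% and 1.19% in the 90% aliquot, and the nuclear RNA Malat1 made up 2.88% and 2.47% of the UMIs of low-depth barcodes against 0.341% and 0.225%.

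The summed markers of other cells were also higher in low-depth barcodes. In the low-depth group 3 of 157 barcodes of the 10% aliquot and 17 of 1243 of the 90% aliquot held at least 2 defining markers of 1 other cell type, and they held 0.260% and 1.93% of all UMIs of the 10 genes. The summed level of 8 immune markers was 334 and 296 CPM in low-depth against 103 and 5.42 CPM in deep barcodes, with a median of 0 per barcode in each group, and Ptprc was at 0 in the low-depth barcodes of the 10% aliquot. The 5 fibro-adipogenic markers were at 34.1 and 77.8 against 8.24 and 3.05 CPM with Pdgfra at 0 in both low-depth groups and Dpt, seen in 15.9% and 16.3% of low-depth barcodes, at 32.3 and 49.1 CPM, the 6 endothelial at 48.5 and 50.4 against 4.71 and 4.15 CPM, the 4 Schwann at 60.1 and 2.95 against 1.37 and 0.971 CPM, and the 3 mural at 0.897 and 5.73 against 0.588 and 3.52 CPM. Without the barcodes that held at least 2 such markers of 1 other cell type, 10 of 10 genes stayed at least 2-fold higher in each aliquot. Barcodes with a single such marker were kept, so the whole part of other cells in the result was not tested.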

How the data were processed

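The authors deposited raw UMI counts per gene and barcode for each aliquot, made from short reads with scPipe, and raw UMI counts per isoform of the 10% aliquot, made from nanopore reads with FLAMES after alignment with minimap2. The submitters' processing notes name Cell Ranger 1.3, minimap2 2.17 and the build GRCm38.p6. Strand settings and the cell filter are not given in the sources used here. Symbols were taken from Gencode vM21, promoters from RefSeq. The 10 genes, the lists and the comparison were chosen with earlier results of these data known.

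The counts of each group of barcodes were summed and divided by the summed UMIs of the group. A group with 0 UMIs was set to 3 counts in a ratio. Intervals are exact (Poisson for sums, Clopper-Pearson for shares, conditional binomial for ratios). Shares were taken after thinning each barcode to 3000 UMIs with a fixed seed. Aliquots hold 6772259 and 39044129 short-read UMIs and the long-read table holds 8297203. Scrublet marked 3 of 269 and 1 of 2039 barcodes of at least 3000 UMIs as doublets, so that the caller did not work on the 90% aliquot, and these barcodes were kept. The genes named are the 10, pathway genes at least 4-fold different in both aliquots (up to 5 per group), markers, and the 8 genes most like the summed 10; other listed genes that are named were chosen after their values were seen. The ratio code was tested on simulated data. Analyses used Python 3.11.15, numpy 2.4.6, scipy 1.17.1 and pandas 2.3.3.

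Alternatives changed the UMI limits, the cell cycle condition, the barcodes kept, the scaling and the fold, and their effect is given in the closing section.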

Additional observations from a re-analysis of the deposited data

How the results depend on the processing

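Alternatives included other UMI limits, no cell cycle condition, and no barcodes with at least 2 markers of 1 other cell type. They also included a mean over barcodes, and CPM divided by the median ratio of all genes. Under each, all 10 genes in each short-read aliquot and 9 of 9 in long reads stayed at least 2-fold higher in low-depth barcodes. Without the 10% of barcodes with most UMIs of the 10 genes it was 9 in the 10% aliquot, where Il6 was at 1.58, and at 4-fold it was 9, 10 and 6. Counted as UMIs per barcode, 4, 5 and 3 genes were at least 2-fold higher in the 10% aliquot, the 90% aliquot and long reads. On that scale the ratio turned for Ccl2 (0.374, 0.665 and 0.601) and Nfkbia (0.448, 0.466 and 0.542), for Socs3 in the 10% aliquot (0.558) and long reads (0.516), and for Ccl7 in the 10% aliquot (0.463). This scale leaves out the division by the UMIs of the barcode, which were fewer in the low-depth group. Over the alternatives other than UMIs per barcode, Cxcl2 in the 10% aliquot ran from 2.81 to 117, Ccl7 from 3.76 to 137 and Cebpd from 52.5 to 210. Leaving out the shared barcodes, or the barcode with most UMIs of each gene, was chosen after seeing the data. No paired analysis was possible because each aliquot is 1 sample of 1 capture. Scrublet marked too few barcodes to bear on the 90% aliquot, and without the 3 it marked in the 10% aliquot the Cebpd ratio was 126. Il6 counts are too few to bound its share in deep barcodes closely. With 1 capture the spread between animals is unknown.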
